A study of Mus musculus with 20 samples.

Results

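The genes described here are the nuclear genes that encode respiratory complexes II, III, IV and V and the mobile carrier cytochrome c, measured in the mouse left ventricle. They were chosen by gene symbol (Sdha to Sdhd, the Uqcr genes with Cyc1, Cycs, the Cox4 to Cox8 genes and the Atp5 genes), and each gene was represented by its probe set with the highest mean over the 20 arrays. The rule found 48 of the 18193 genes that had a probe set with a single symbol: 4 of complex II, 9 of complex III, cytochrome c as 1 gene, 17 of complex IV and 17 of complex V. In all, 47 of the 48 lay in the brighter 50% of probe sets that were tested, and Cox8c, an isoform of complex IV best known from testis, did not.

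The hearts came from male C57BL/6J mice in 5 groups of 4, with 1 Affymetrix Mouse Genome 430 2.0 array per mouse. The animals arrived at 6 weeks of age, were kept for 2 weeks on standard chow and then ate that chow for 4 weeks, either alone (control) or mixed with a powdered tablet of 1 of 4 statins. The statins were pitavastatin calcium at 4.5 mg/kg/day, pravastatin sodium at 21.0 mg/kg/day, rosuvastatin calcium at 10.9 mg/kg/day and atorvastatin calcium hydrate at 11.4 mg/kg/day. Statins inhibit the reductase that makes mevalonate, the precursor of cholesterol and also of the tail of coenzyme Q, which carries electrons from complex II to complex III. The doses differed, so the statins are set side by side and not compared with each other, and each was compared with the same 4 control mice.

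The respiratory chain sits in the inner mitochondrial membrane. Complex II passes electrons from succinate to coenzyme Q, complex III passes them on to cytochrome c, complex IV hands them to oxygen, and complex V, the ATP synthase, uses the proton gradient built on the way to make ATP. The beating ventricle depends on this chain for nearly all of its ATP, and its muscle cells are packed with mitochondria. Most subunits are encoded in the nucleus, and complex IV has subunits that come in a striated muscle form and a widely expressed form. The subunits encoded by mitochondrial DNA were not analysed here.

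The promoters of these genes are known for sites of the factors NRF1 and GABPA (also called NRF2) and of the estrogen-related receptors such as ESRRA. The RefSeq table used here (build GRCm38.p6) held 39 promoters of 36 of the 48 genes, each running from 250 bases before the start site to 50 after it. The letters GCGCANGCG (NRF1), searched on both strands, were present in 13 of the 39 promoters (33.3%), against 6.25% of all 32851 promoters in the table. CCGGAAGT (GABPA) was present in 4 of the 39 (10.3%), against 3.89% of all, and CAAGGTCA (ESRRA) in 3 (7.69%), against 1.56%. Of 44 promoters of the Nduf genes, named for complex I, 11 held the NRF1 letters, 1 the GABPA letters and 1 the ESRRA letters. No searched motif lies within another, but 2 matches to the NRF1 letters on opposite strands can overlap, as in Cox6a1. A match is a description of the letters only. The sequences below show 1 gene of each complex, chosen because its matches lie upstream of the start site, for genes whose signals went up and down together from mouse to mouse as described further on. Each is the 250 bases before the start site, read 5′ to 3′ on the gene's strand (the minus strand for all 5), with matches in capitals. They lie at chr13:74350241-74350490 for Sdha, chr4:116075071-116075320 for Uqcrh, chr6:50566570-50566819 for Cycs, chr5:115348959-115349208 for Cox6a1 and chr11:115419920-115420169 for Atp5h.
Sdha: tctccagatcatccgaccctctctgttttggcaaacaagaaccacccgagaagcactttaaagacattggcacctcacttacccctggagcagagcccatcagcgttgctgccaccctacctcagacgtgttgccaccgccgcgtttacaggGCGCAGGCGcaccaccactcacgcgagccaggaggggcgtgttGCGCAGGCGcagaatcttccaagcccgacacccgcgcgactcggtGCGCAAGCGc
Uqcrh: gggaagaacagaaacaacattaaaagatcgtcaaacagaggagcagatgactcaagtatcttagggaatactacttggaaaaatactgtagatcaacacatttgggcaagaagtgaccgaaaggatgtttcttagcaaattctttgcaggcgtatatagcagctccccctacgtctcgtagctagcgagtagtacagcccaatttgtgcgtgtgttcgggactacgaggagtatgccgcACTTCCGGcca
Cycs: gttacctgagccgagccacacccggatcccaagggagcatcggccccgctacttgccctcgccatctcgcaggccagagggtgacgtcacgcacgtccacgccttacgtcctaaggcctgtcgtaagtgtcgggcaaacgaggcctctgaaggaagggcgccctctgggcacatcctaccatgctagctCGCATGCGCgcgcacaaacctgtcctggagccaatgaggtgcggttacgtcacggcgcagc
Cox6a1: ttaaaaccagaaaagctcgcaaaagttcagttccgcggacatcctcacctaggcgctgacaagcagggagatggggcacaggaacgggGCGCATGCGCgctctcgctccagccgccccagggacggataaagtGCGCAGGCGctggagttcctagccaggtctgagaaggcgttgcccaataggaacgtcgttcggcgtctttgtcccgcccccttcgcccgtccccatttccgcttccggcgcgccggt
Atp5h: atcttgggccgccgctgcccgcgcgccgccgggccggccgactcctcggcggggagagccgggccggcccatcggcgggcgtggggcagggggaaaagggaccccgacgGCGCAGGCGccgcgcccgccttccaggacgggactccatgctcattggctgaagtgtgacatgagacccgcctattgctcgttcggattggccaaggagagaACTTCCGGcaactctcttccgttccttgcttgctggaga
In Sdha the NRF1 letters begin at -98, -55 and -10, counted from the start site with -1 as the base just before it. Cycs has 1 NRF1 match, on the opposite strand, at -61, and Uqcrh has 1 GABPA match, also on the opposite strand, at -11. Atp5h holds both, NRF1 at -141 and GABPA at -39, and Cox6a1 holds NRF1 at -162, -161 and -117.

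The genes were among the brightest signals of these hearts: 36 of the 48 probe sets were in the brightest 1% of the array by mean signal. All values are log2(signal + 16) unless stated otherwise, and a difference is a statin mean minus the control mean on that scale, which understates the change of dim genes. All 15 cardiomyocyte markers looked at, among them Myh6, Myl2 and Tnnt2, were in the tested range, while none of 5 annotated adipocyte markers was (Adipoq, Cidec, Lep, Retn and Ucp1), and of 5 atrial markers only Myl4 and Nppa were. The arrays had been scaled to the same trimmed mean of 500, yet their median signals lay between 41.7 (rosuvastatin 3) and 144 (atorvastatin 2), and the log2 of the 99th percentile, taken over probe sets of no respiratory gene described here, between 13.44 (atorvastatin 1) and 13.92 (atorvastatin 4). The ratio of the 3′ to the 5′ Gapdh control probe set, a sign of RNA integrity, ran from 1.51 to 1.86.

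Hearts of pitavastatin mice had slightly higher mean signals for respiratory genes than control hearts, and those of the other 3 statins slightly lower ones, but the mice of every group overlapped the control mice, and the rosuvastatin direction turned with the array median as a covariate. The mean over the 47 genes was 13.71, 13.87, 13.91 and 13.91 in the 4 control mice. It was 13.88, 13.97, 13.86 and 13.99 with pitavastatin and 13.59, 13.66, 13.78 and 13.90 with pravastatin. The rosuvastatin mice had 13.56, 14.09, 13.37 and 13.82, and the atorvastatin mice 13.35, 13.85, 13.59 and 14.13. Rosuvastatin and atorvastatin thus held the lowest and the highest hearts of the study: mice 1 and 3 of both groups lay below every control mouse, and rosuvastatin 2 and atorvastatin 4 above every one. The SD between the 4 mice was 0.09 in control, 0.06 and 0.14 in the pitavastatin and pravastatin groups, and 0.31 and 0.34 in the rosuvastatin and atorvastatin groups. Atorvastatin 1 had the lowest signal of all 20 mice for 23 of the 47 genes and rosuvastatin 3 for 18, and atorvastatin 4 had the highest for 26. The 3′ to 5′ Gapdh ratio was lowest in 2 of the low hearts, rosuvastatin 3 (1.51) and atorvastatin 1 (1.54), and highest in the high ones, rosuvastatin 2 (1.86) and atorvastatin 4 (1.83). Its part in these values was not tested.

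**Figure D1:**
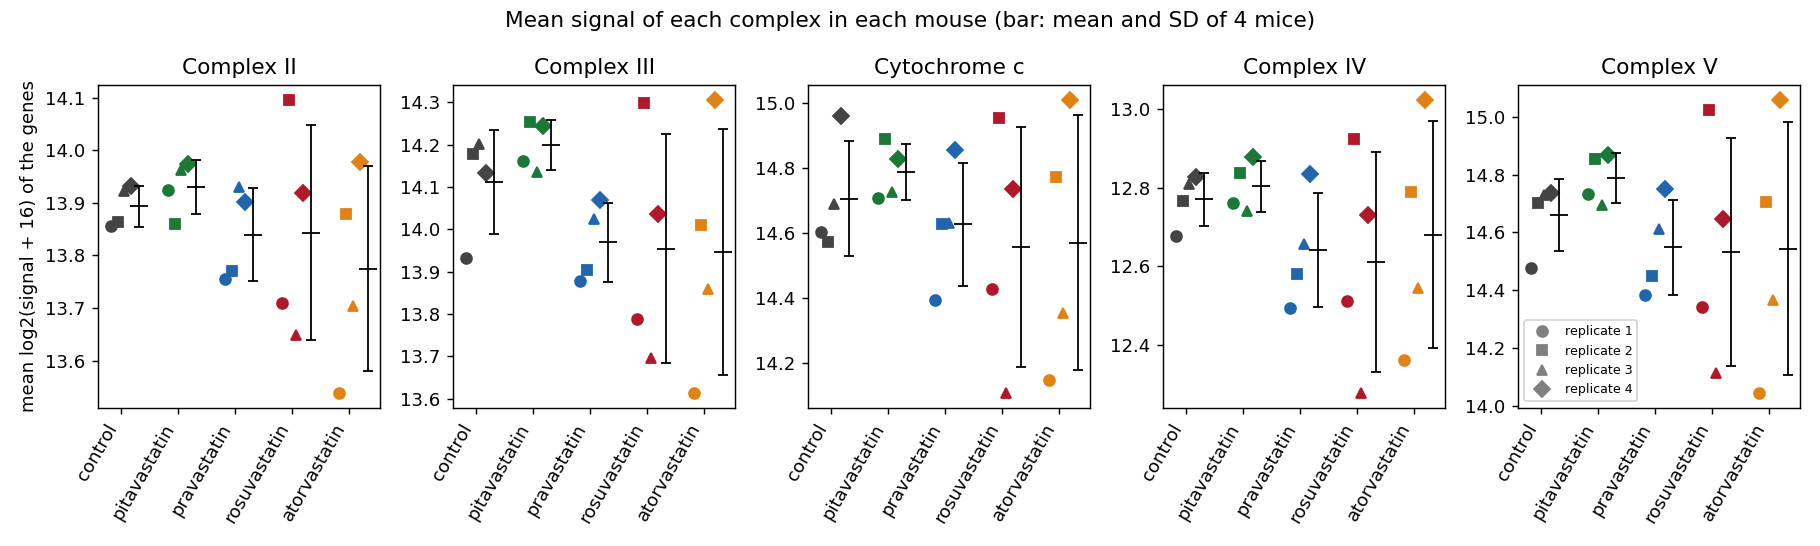
Mean log2(signal + 16) of the tested genes of complexes II (4 genes), III (9), IV (16) and V (17) and of cytochrome c (1 gene) in each mouse, by group. Symbols are the 4 mice of a group, with the mean and SD at their right, and the rosuvastatin and atorvastatin mice spread to both sides of the control mice in the panels of complexes II to V.

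No respiratory gene passed the test against control in any statin group. The moderated test of limma, with Benjamini-Hochberg adjustment across the 22518 probe sets, called 0 of the 47 genes and 0% of all probe sets in each of the 4 comparisons. The lowest adjusted p among the brightest probe sets of the 47 genes was 0.459, for Cox7c with rosuvastatin. At an unadjusted limma p under 0.05 there was 1 gene with pitavastatin, against 1.93% of all probe sets, and 1 with pravastatin, against 3.93%. With rosuvastatin and with atorvastatin there were 0, against 11% and 4.57%. The F test over the 5 groups called 0 of the 47 genes and 0.00444% of all probe sets, and 1 gene, Cox7c, had an unadjusted p under 0.05, against 6.24%. The median 95% interval of a difference reached 0.39 to either side for these genes.

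The differences were small but had the same sign in most of the genes. With pitavastatin the median difference was 0.09 and 41 of 47 genes lay above control, against 49% of all probe sets. With pravastatin the median was -0.12 and 44 of 47 lay below control, against 55% of all probe sets. With rosuvastatin it was -0.13 with 44 of 47 below, against 54.1%, and with atorvastatin -0.12 with 45 of 47 below, against 56.1%. The medians over all tested probe sets were -0.003, -0.02, -0.02 and -0.03 in the same order. Centring each array on its median raised the median of all probe sets by 0.38 with rosuvastatin and that of the respiratory genes to 0.25. Centring shifts all probe sets of an array alike, so it cannot change the gap between these 2 medians. In the deposited values that gap was 0.10, -0.10, -0.11 and -0.09 in the same order of statins. Under quantile normalization, which can change it, the gap was 0.03, -0.01, -0.03 and -0.01. These genes share their mice and their arrays, so the count of genes on 1 side is not a count of independent events. Leaving out single mice moved the medians widely: rosuvastatin stood at -0.01 without rosuvastatin 3 and at -0.28 without rosuvastatin 2, and atorvastatin at 0.02 without atorvastatin 1 and at -0.26 without atorvastatin 4. Rosuvastatin also stood at -0.08 without rosuvastatin 1, and atorvastatin at -0.05 without atorvastatin 3. The pravastatin median was -0.07 without pravastatin 1, and the pitavastatin median 0.04 without control 1, the lowest control mouse. In whole ventricle, fewer cells of a type and less RNA per cell cannot be told apart.

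The brightness of the array varied with these values, and what it contributes to them was not tested beyond the fits given here. With the log2 median of the array added as a covariate, the medians were 0.10, -0.07, 0.07 and -0.07 for pitavastatin, pravastatin, rosuvastatin and atorvastatin, so the rosuvastatin median changed sign and 35 of 47 genes lay above control. With the 99th percentile as the covariate, a choice made after seeing the data, the medians were 0.02, 0.01, -0.01 and 0.01. In that fit 28, 24, 19 and 26 of the 47 genes lay above control. Other bright probe sets had like values without a covariate. Over the 393 probe sets of other genes in the brightest 1%, the median differences were 0.08, -0.09, -0.10 and -0.09. With the 99th percentile as covariate they were 0.01, 0.02, 0.01 and 0.03. That percentile is a level of these same bright probe sets, so their values near 0 in that fit follow from the covariate. They are no separate comparison for the respiratory genes. Of these 393, 21.4% lay below control in the pitavastatin group and 91.3%, 92.9% and 88.3% in the pravastatin, rosuvastatin and atorvastatin groups.

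**Figure D2:**
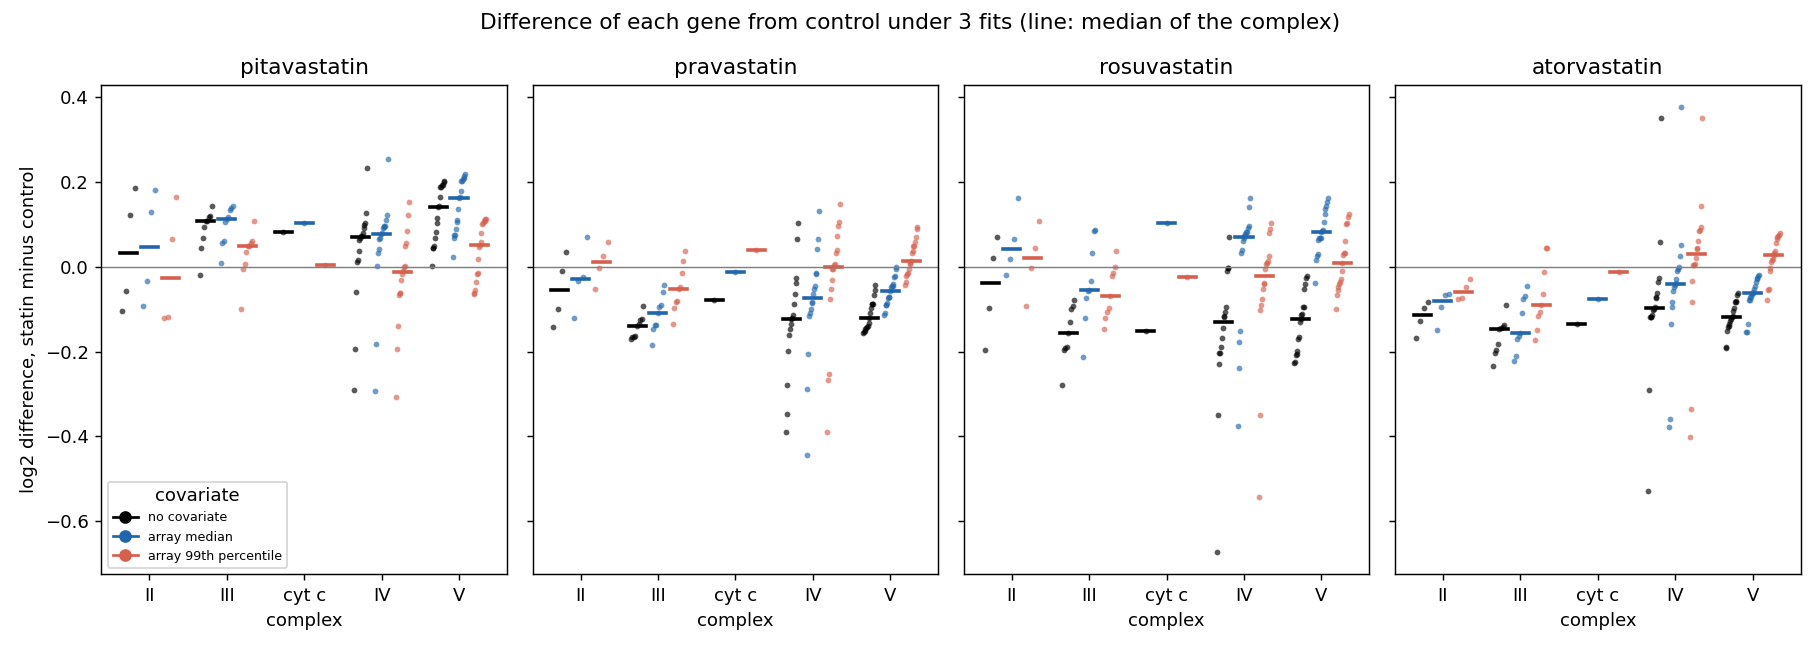
Log2 difference of each of the 47 tested genes from control by complex, for each statin, without a covariate (black), with the array's log2 median signal (blue) and with its log2 99th percentile (red). Each point is a gene and each line the median of a complex; the medians over all genes shrink from 0.09, -0.12, -0.13 and -0.12 to 0.02, 0.01, -0.01 and 0.01 with the 99th percentile.

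The dependence on the array was itself measured within groups. The slope of a gene on the log2 99th percentile, fitted with 1 mean per group, was called as rising for 37 of the 47 genes at an adjusted limma p under 0.05, against 4.26% of all probe sets. Of the 393 probe sets of other genes in the brightest 1%, 371 (94.4%) also had a called rising slope. The 99th percentile is itself a level of bright probe sets, so such slopes are not particular to respiratory genes. Among the genes described here the slope was called for 17 of 17 of complex V, 10 of 16 of complex IV and 7 of 9 of complex III. In complex II it was called for 2 of 4, and it was called for cytochrome c. The median slope over the 47 genes was 1.98, so that a respiratory gene typically moved by 1.98 log2 units when the bright end of its array moved by 1. The count was 38 without rosuvastatin 3 and atorvastatin 2, the arrays with the lowest and highest median, and ran from 36 to 38 when each array was left out in turn. On the log2 median signal of the array 25 of 47 genes had a called rising slope, against 24% of all probe sets, and 2 a called falling one, Cox4i2 and Cox8a, against 15.5%. Without rosuvastatin 3 the count of called slopes on the array median, in both directions, was 15, against 27 with all arrays.

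**Figure D3:**
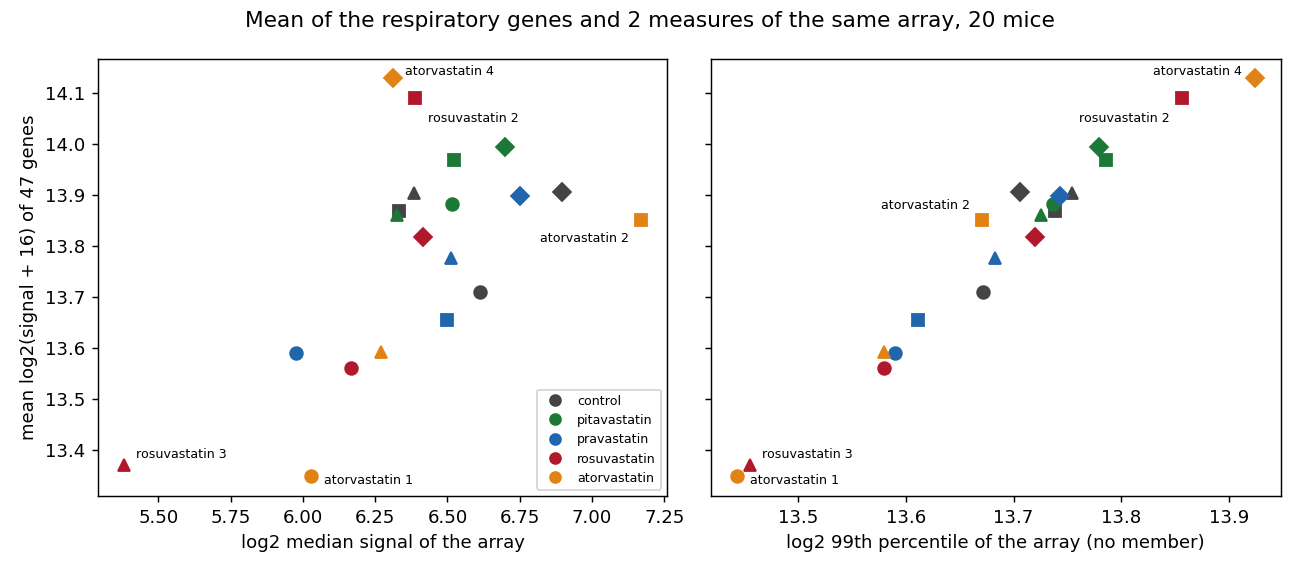
Mean log2(signal + 16) of the 47 genes against the log2 median signal (left) and the log2 99th percentile over probe sets of no gene described here (right) of the same array. Each symbol is 1 of 20 mice, coloured by group; on the right the mice line up from atorvastatin 1 at 13.44 to atorvastatin 4 at 13.92, while on the left atorvastatin 2 and atorvastatin 4 depart from such an order.

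Cardiomyocyte markers lay on the same side of control as the respiratory genes. Under pitavastatin their median difference was 0.12, with 13 of 15 above control. It was -0.12, -0.15 and -0.13 under pravastatin, rosuvastatin and atorvastatin, with 15, 14 and 15 of 15 below control, and limma called 0 of them. With the 99th percentile as covariate, which is taken over probe sets that include these markers, the medians were 0.02, 0.04, -0.02 and 0.01. The summed signal of the 15 markers ran from 381580 to 464010 in control hearts. The pitavastatin hearts lay between 428370 and 496170, the pravastatin hearts between 352020 and 467270, the rosuvastatin hearts between 277580 and 555290 and the atorvastatin hearts between 265490 and 578430. Ribosomal 18S signal, read by a control probe set, was 2240 to 2793 in control mice and higher in every pravastatin (3122 to 4842) and rosuvastatin mouse (2972 to 5346). Markers of other cell types did not share one pattern, and limma called 0 of them. Fibroblast markers had medians of -0.03, -0.11, 0.09 and -0.10 in the order of statins above, with 9 of 10 below control under both pravastatin and atorvastatin, where the medians were -0.12 and -0.15 with the 99th percentile as covariate. Endothelial markers lay above control for 8 of 10 under pitavastatin (median 0.12) and atorvastatin (0.06). Under rosuvastatin 7 of 10 did (0.14), and under pravastatin 5 of 10 (-0.02). Of 7 markers of smooth muscle and pericytes, 6 lay above control under pitavastatin (0.19) and rosuvastatin (0.10). For atorvastatin it was 5 (0.03), and for pravastatin 4 (0.02). The 2 tested erythroid markers had medians of -0.56 and -0.44 under rosuvastatin and atorvastatin. The part of these in the differences of respiratory genes was not tested.

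Complex II, succinate dehydrogenase, links the citric acid cycle to the chain. Its mean over 4 genes was 13.89 ± 0.04 (control), 13.93 ± 0.05 (pitavastatin), 13.84 ± 0.09 (pravastatin), 13.84 ± 0.20 (rosuvastatin) and 13.78 ± 0.19 (atorvastatin), each ± SD with n = 4. By their brightest probe sets, the genes of this complex did not share a direction except with atorvastatin, where all 4 lay below control. With pitavastatin another Sdha probe set stood at 0.06, against -0.06 for the brightest. Sdha, the flavoprotein that oxidises succinate, was at 14.80, 14.64, 14.60 and 14.86 in control mice and at 14.40, 14.90, 14.08 and 14.73 with rosuvastatin, a difference of -0.20 (SE 0.17, limma adjusted p = 0.679). Rosuvastatin 1 and 3 lay below the control mice and rosuvastatin 2 above them. Sdhb, the iron-sulfur subunit, differed by 0.12, -0.14, -0.10 and -0.17 in the order pitavastatin, pravastatin, rosuvastatin, atorvastatin, each with an SE of 0.13. Sdhc and Sdhd anchor the enzyme in the membrane and form the coenzyme Q site with Sdhb. Sdhc stood at 0.19, -0.01, 0.07 and -0.08 in the order of statins above, and Sdhd at -0.10, 0.03, 0.02 and -0.10. Another Sdhc probe set stood at 0.10, 0.01, -0.06 and -0.17 (SE 0.09). Another Sdhd probe set stood at 0.21, 0.18, 0.17 and -0.11 (SE 0.11), so the directions of these genes differed between probe sets. The brightest probe sets of Sdhc and Sdhd had no called slope on the 99th percentile (0.57 and 0.38), whereas those of Sdha and Sdhb did (1.58 and 1.44).

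Complex III, the cytochrome bc1 complex, had a mean over 9 genes of 14.11 ± 0.12 (control), 14.20 ± 0.06 (pitavastatin), 13.97 ± 0.09 (pravastatin), 13.95 ± 0.27 (rosuvastatin) and 13.95 ± 0.29 (atorvastatin), each ± SD with n = 4. All 9 genes lay below control with each of pravastatin, rosuvastatin and atorvastatin, and 8 of 9 above it with pitavastatin. Cyc1, cytochrome c1, which hands electrons to cytochrome c, was at 14.42, 14.61, 14.68 and 14.58 in control mice and at 14.13, 14.36, 14.16 and 14.69 with atorvastatin. In 3 of 4 atorvastatin mice it lay below every control mouse, and atorvastatin 4 lay above all of them. The difference was -0.23 (95% interval -0.50 to 0.03, limma adjusted p = 0.964), and -0.15 with the 99th percentile as covariate (adjusted p = 0.808). In that covariate fit the median of the complex with atorvastatin was -0.09, with 7 of 9 genes below control. For atorvastatin it was 0.03 for complexes IV and V and -0.06 for complex II. Complex III was at -0.05 with pravastatin (7 of 9 below control) and at -0.07 with rosuvastatin (8 of 9 below). It was at 0.05 with pitavastatin (7 of 9 above control). Over all probe sets that fit gave medians of -0.01, -0.01, -0.02 and -0.02 for pitavastatin, pravastatin, rosuvastatin and atorvastatin. Uqcrfs1, the Rieske iron-sulfur protein, differed from control by -0.20 with atorvastatin and by -0.12 in the covariate fit.

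The core proteins Uqcrc1 and Uqcrc2 face the matrix. Uqcrc2 had the steepest slope of the 47 genes on the 99th percentile (2.93), and its signal was 14.24, 15.13, 13.90 and 14.58 in rosuvastatin mice against 14.47, 14.73, 14.69 and 14.72 in control. Uqcrc1 had a slope of 0.48, which was not called, and differed by 0.07, -0.16, -0.13 and -0.20 in the order of statins above. Uqcrb, which binds near the coenzyme Q site, had the lowest rosuvastatin difference of the complex, -0.28 (95% interval -0.69 to 0.13), and 0.03 with the array median as covariate. The small subunits Uqcr10, Uqcr11, Uqcrh (the hinge protein) and Uqcrq lay between 0.09 and 0.14 with pitavastatin and between -0.20 and -0.08 with the other statins.

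Cytochrome c, the soluble carrier between complexes III and IV, is read from Cycs. It was at 14.60, 14.57, 14.69 and 14.96 in control mice and at 14.71, 14.89, 14.73 and 14.83 with pitavastatin. Atorvastatin mice had 14.14, 14.77, 14.35 and 15.01. In the same order of statins its differences were 0.08, -0.08, -0.15 and -0.14, each with an SE of 0.18, and all groups overlapped control. Its slope on the 99th percentile was 1.96.

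Complex IV, cytochrome c oxidase, was tested by 16 genes, with a mean of 12.77 ± 0.07 (control), 12.80 ± 0.06 (pitavastatin), 12.64 ± 0.15 (pravastatin), 12.61 ± 0.28 (rosuvastatin) and 12.68 ± 0.29 (atorvastatin), each ± SD with n = 4. Its median differences changed sign under several settings. The pitavastatin median of 0.07 was -0.0024 under quantile normalization and -0.013 with the 99th percentile as covariate, and the pravastatin median, -0.12, was 0.00036 with that covariate. The rosuvastatin median of -0.13 was 0.0037 under quantile normalization and 0.07 with the array median as covariate. The atorvastatin median of -0.10 was 0.0019 under quantile normalization, 0.03 with the 99th percentile as covariate and 0.04 without atorvastatin 1. The nuclear subunits Cox4i1, Cox5a, Cox5b, Cox6b1 and Cox6c lay between 0.01 and 0.10 under pitavastatin. They lay between -0.20 and -0.11 under pravastatin, between -0.23 and -0.17 under rosuvastatin and between -0.12 and -0.06 under atorvastatin. Cox4i1, the usual form of the subunit that binds ATP, was at 14.88, 14.98, 14.91 and 15.05 in control mice and at 14.40, 15.11, 14.56 and 15.36 with atorvastatin, 2 mice below and 2 above all control mice. Cox7a2l has been described as a factor for joining complexes III and IV into supercomplexes, a role that was not measured in these hearts. Cox7a2l varied least of the 47 genes, with a residual SD within groups of 0.11. Its differences were 0.07 for each of pitavastatin, pravastatin and rosuvastatin, and -0.03 for atorvastatin. Its slope on the array median was -0.004.

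Muscle and widely expressed forms of complex IV subunits were set against each other within each array, which removes whatever is common to the pair. Cox6a2, Cox7a1 and Cox8b are the striated muscle forms, and Cox6a1, Cox7a2 and Cox8a the forms found in most tissues. Cox6a2 minus Cox6a1 was 0.48, 0.76, 0.64 and 0.53 in control mice and 0.77, 0.82, 0.60 and 0.73 with pitavastatin, where 2 mice exceeded every control mouse. The pitavastatin difference of 0.13 had an exact two-sided permutation p of 0.171, and 0.971 when adjusted over the 12 tests of 3 pairs and 4 statins. With the second brightest Cox6a2 probe set the same difference was -0.14. The other 11 tests gave unadjusted exact p from 0.257 to 0.971 and an adjusted p of 0.971, where 0.0286 is the smallest that 4 against 4 mice can give. Cox7a1 minus Cox7a2 stayed between -0.06 and 0.04 of control, and Cox8b minus Cox8a between -0.12 and -0.01. Rosuvastatin 3 had the lowest value of all 20 mice for Cox6a2 minus Cox6a1 (0.06) and for Cox8b minus Cox8a (3.35), and atorvastatin 1 the highest for Cox7a1 minus Cox7a2 (-0.48). A difference between the probe sets of a pair is not a ratio of their transcripts, because each probe set has its own response.

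**Figure D4:**
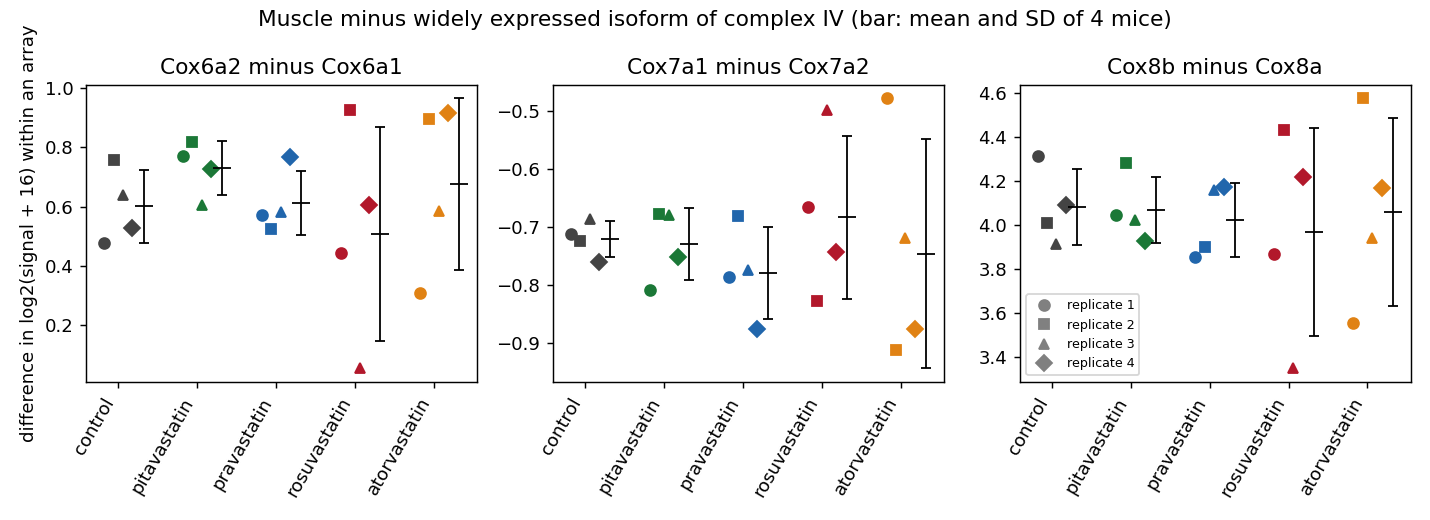
Difference in log2(signal + 16) between the muscle and the widely expressed isoform within each array, for 3 subunits of complex IV. Symbols are the 4 mice of a group with the mean and SD at their right; the rosuvastatin and atorvastatin mice spread most, from 0.06 to 0.92 for Cox6a2 minus Cox6a1 with rosuvastatin.

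Among the genes' brightest probe sets, the widest differences were those of 4 dimmer ones of complex IV. Cox7c, a small subunit, had signals of 7.42, 7.19, 7.12 and 7.64 in control mice and of 6.92, 7.10, 6.89 and 7.04 with rosuvastatin. It was the only one of the 47 genes whose statin and control mice did not overlap, against 1.69%, 2.94%, 4.53% and 1.37% of all probe sets for pitavastatin, pravastatin, rosuvastatin and atorvastatin, and so near the rate over all probe sets. The difference was -0.35 with rosuvastatin (SE 0.18, limma adjusted p = 0.459) and 0.35 with atorvastatin, where the mice had 7.56, 7.69, 8.12 and 7.39. Over the 5 groups its unadjusted F test p was 0.0101 and its adjusted p 0.591. Another Cox7c probe set lay below the tested range, so the value rests on 1 probe set, and whether that dim probe set reads the main Cox7c transcript was not tested.

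Cox6b2, a form of subunit VIb best known from testis, had 9.21, 9.21, 9.14 and 8.82 in control mice. It had 8.71, 8.82, 8.95 and 8.74 with pitavastatin and 8.88, 8.84, 8.56 and 8.99 with pravastatin, so that in both groups all 4 mice lay below 3 of the 4 control mice. The differences were -0.29 and -0.28 (SE 0.13 for both, limma adjusted p = 1.00 and 0.992). Among the brightest probe sets of the 47 genes, only these differences had an unadjusted limma p under 0.05 (0.0404 and 0.0487). They were -0.31 and -0.25 with the 99th percentile as covariate. Rosuvastatin and atorvastatin stood at -0.12 and 0.06.

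Cox4i2, the form of subunit IV known from lung and from low oxygen, fell with the array median: its slope was -0.78 (adjusted p = 1.9e-04), and its lowest mouse, atorvastatin 2 at 7.15, had the highest array median. Without a covariate its differences were 0.13, -0.35, -0.01 and -0.29 in the order of statins above, and with the array median 0.09, -0.44, -0.38 and -0.38. Cox7b2, another form best known from testis, had the widest difference among the genes' brightest probe sets, -0.67 with rosuvastatin (95% interval -1.49 to 0.14, limma adjusted p = 0.499), and 0.04 with the array median as covariate. Its rosuvastatin mice had 7.52, 7.41, 6.06 and 7.69, with rosuvastatin 3 far below the rest. Cox8c, the gene outside the tested range, ran from 4.16 to 6.89 over the control mice and from 4.34 to 6.29 over the statin mice.

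**Figure D5:**
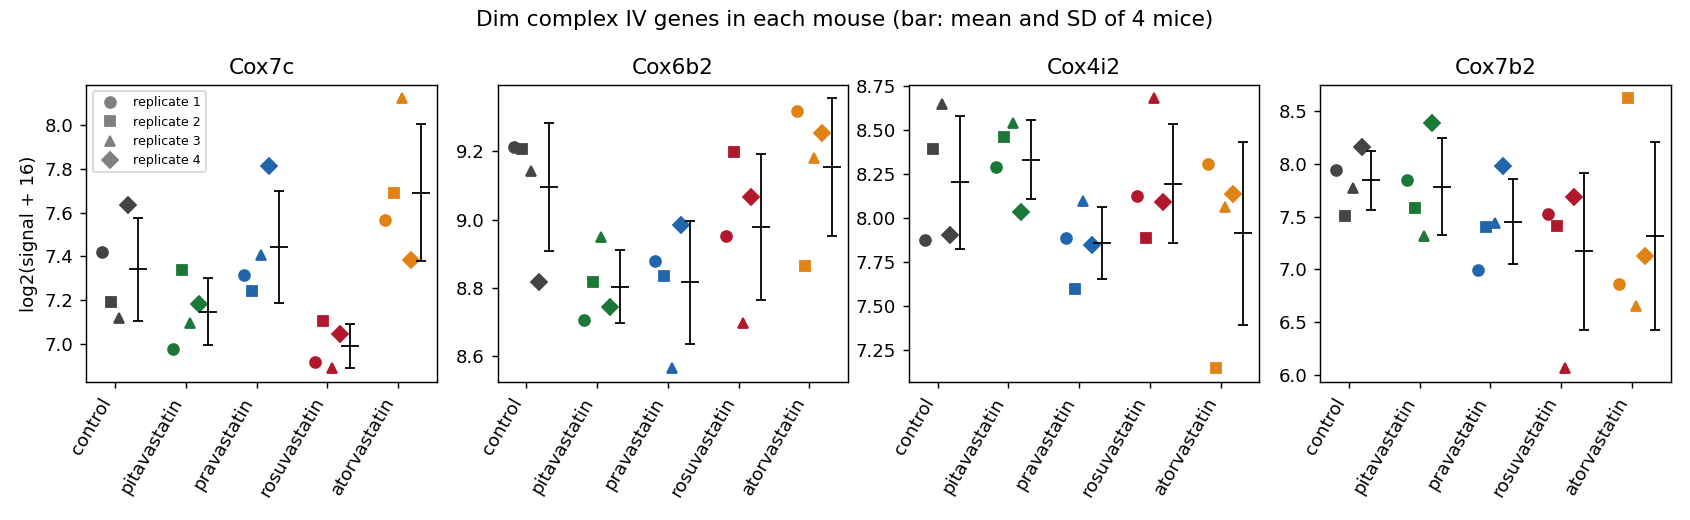
Log2(signal + 16) of Cox7c, Cox6b2, Cox4i2 and Cox7b2 in each mouse by group, with the mean and SD of 4 mice at the right of each group. The 4 rosuvastatin mice lie between 6.89 and 7.10 for Cox7c, below the control mice at 7.12 to 7.64, while the groups overlap for the other 3 genes.

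Complex V was the complex whose genes lay all on 1 side of control in each statin group. Its mean over 17 genes was 14.48, 14.70, 14.73 and 14.74 in control mice and 14.73, 14.85, 14.70 and 14.87 with pitavastatin. The group means were 14.66 ± 0.12 (control), 14.79 ± 0.09 (pitavastatin), 14.55 ± 0.17 (pravastatin), 14.53 ± 0.39 (rosuvastatin) and 14.54 ± 0.44 (atorvastatin), each ± SD with n = 4. All 17 genes lay above control with pitavastatin and all 17 below it with each other statin, at medians of 0.14, -0.12, -0.12 and -0.12. The rosuvastatin median was 0.00013 without rosuvastatin 3 and 0.02 under quantile normalization, and the atorvastatin median 0.06 without atorvastatin 1. With the 99th percentile as covariate the medians were 0.05, 0.01, 0.01 and 0.03, and 11, 11, 9 and 12 of 17 genes lay above control. With the array median as covariate 16 of the 17 lay above control with rosuvastatin.

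The catalytic head of the ATP synthase is built from the alpha and beta subunits, encoded by Atp5a1 and Atp5b, around the gamma subunit Atp5c1. Atp5b was at 14.47, 14.81, 14.76 and 14.76 in control mice and at 14.06, 14.68, 14.41 and 15.17 with atorvastatin, so the atorvastatin mice lay on both sides of the control mice. Its differences were 0.14, -0.10, -0.12 and -0.12 in the order of statins above, each with an SE of 0.20. Atp5a1 differed by 0.05, -0.15, -0.22 and -0.13, and its rosuvastatin mice ran from 14.61 to 15.71 against 15.29 to 15.50 in control. Atp5d and Atp5e, the delta and epsilon subunits of the central stalk, had pitavastatin differences of 0.19 and 0.20 (SE 0.18 and 0.19, limma adjusted p = 1.00 for both).

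The peripheral stalk and the membrane parts had differences of the same size. Atp5o, the subunit that confers sensitivity to oligomycin, differed by 0.05, -0.14, -0.20 and -0.13, and Atp5pb, subunit b of the stalk, by 0.003, -0.14, -0.21 and -0.12. Atp5h and Atp5j, the stalk subunits d and F6, lay at 0.07 and 0.19 with pitavastatin and at -0.17 and -0.09 with rosuvastatin. Atp5g1, Atp5g2 and Atp5g3 encode the same mature ring subunit c, and they stood at 0.17, 0.11 and 0.05 with pitavastatin and at -0.13, -0.11 and -0.23 with rosuvastatin. Atp5g3 had the steepest slope of the complex on the 99th percentile (2.77) and Atp5g2 the flattest (1.18). The small membrane subunits Atp5j2, Atp5k, Atp5l, Atp5md and Atp5mpl lay between 0.08 and 0.20 with pitavastatin and between -0.20 and -0.02 with rosuvastatin.

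Most other probe sets of the same genes gave like values. Of 48 further probe sets, 36 from 26 genes were in the tested range, and their median differences were 0.10, -0.09, -0.09 and -0.13 for pitavastatin, pravastatin, rosuvastatin and atorvastatin. They had the sign of the gene's brightest probe set in 27, 32, 30 and 33 of 36 cases. The widest disagreement was in Atp5c1, whose dim probe set stood at -0.81 with pitavastatin against 0.11 for the bright one. That dim probe set stood at -0.75 with rosuvastatin against -0.17 for the bright one. Its unadjusted limma p were 0.0019 with pitavastatin and 0.0032 with rosuvastatin (adjusted p = 0.9999 and 0.452). They were the only ones under 0.05 among the 36 probe sets, and lower than those of any gene's brightest probe set against control. For Uqcr10 another probe set stood at 0.31 with rosuvastatin against -0.20 for the bright one.

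Genes related to complexes II to V had medians of like size or nearer 0. The 43 tested Nduf genes, named for complex I and its assembly factors, had medians of 0.12 (41 above control), -0.10 (38 below), -0.06 (32 below) and -0.12 (41 below), with 0 called by limma and 0 at an unadjusted p under 0.05 in each statin group. The 34 tested assembly factors, which insert metals and build the complexes, had medians of 0.08, -0.05, 0.02 and -0.09 with 0 called. At an unadjusted limma p under 0.05 there were 1, 2, 2 and 3 of them, against 1.93%, 3.93%, 11% and 4.57% of all probe sets. Among them Oxa1l, which inserts subunits into the inner membrane, had values of -0.34 with pravastatin and with atorvastatin (SE 0.13). Sco1 stood at 0.29 with pravastatin (SE 0.12). Cox16 stood at 0.42 with pitavastatin (SE 0.19). Rosuvastatin values were 0.27 for Ttc19 (SE 0.13) and 0.18 for Fastkd2 (SE 0.08). With atorvastatin Coa7 stood at 0.33 (SE 0.14) and Atpaf2 at -0.37 (SE 0.16). The 22 regulators of respiratory genes had medians of 0.02, -0.03, 0.04 and -0.04 with 0 called, and 1, 0, 1 and 2 at an unadjusted p under 0.05, to be read against the same shares. Those under 0.05 were Creb1 at -0.29 with pitavastatin (SE 0.12) and Pprc1 at 0.41 with rosuvastatin (SE 0.18). With atorvastatin they were Pprc1 at 0.44 (SE 0.18) and Gabpa at 0.27 (SE 0.12). Ppargc1a, the coactivator of mitochondrial genes, stood at -0.17, -0.05, -0.08 and 0.05 (SE 0.14). Atpif1, the inhibitor of the ATP synthase, stood at 0.19, -0.09, 0.03 and -0.04. The median slope on the 99th percentile was 1.40 for the Nduf genes, -0.10 for the assembly factors and -0.10 for the regulators.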

How the data were processed

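Each deposited value is the signal intensity of a probe set, linear and scaled per array. The submitters' processing notes name MAS5 as the tool, and its version is not given in the sources used here. The series' design text names GeneSpring GX for their analysis. Control probe sets (64) were dropped, 16 was added and log2 taken. Of 45037 probe sets the brighter 50% by mean log2 value were tested (22518, signal above 81.8). The fit was limma 3.58.1 in R 4.3.3 with 1 mean per group over all 20 arrays, a trend in the prior variance and Benjamini-Hochberg adjustment over all tested probe sets, with calls at 0.05. The slope fits added 1 array measure as a covariate. Isoform pairs were compared by two-sided exact permutation over mice. The number of arrays limits the precision. The limma p-values rest on 1 within-group spread pooled over all 20 arrays, so a gene has the same SE for each statin. The spread between mice was not the same in each group. For the mean over the 47 genes the SD was 0.06 with pitavastatin and 0.34 with atorvastatin. The genes, lists and tests were chosen with earlier results of these data known. Named genes were core subunits and complex IV isoforms, the genes with the largest and smallest differences of each complex, those with an unadjusted p under 0.05 and those whose groups did not overlap. Others were named to account for every gene. Gene symbols are those of the platform annotation, and all 48 matched the RefSeq table. The procedure was tested on simulated data.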

Additional observations from a re-analysis of the deposited data

Results flagged for a closer look

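In 7 of 260 groups of 4 mice looked at, 1 mouse lay far from the other 3, where chance alone sets apart about 1 in 20 groups. Control 1 had the lowest complex V mean, 14.48, with the other control mice between 14.70 and 14.74. The same mouse was low for Uqcrc2 (14.47), Atp5b (14.47), Atp5e (14.09) and Uqcrh (14.50). Control 4 was high for Cox5b at 15.13, with the other control mice between 14.91 and 14.95. For Cox7b2, rosuvastatin 3 was at 6.06 and the other rosuvastatin mice between 7.41 and 7.69. The array of rosuvastatin 3 also had the lowest median signal of the 20.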

How the results depend on the processing

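No gene was called in any statin comparison or in the F test under any alternative run. The 20 median differences (4 statins, over all genes and over complexes II to V) kept to within 1 SD between mice in 446 of 460 recomputations, and in 36 the sign changed. With rosuvastatin and atorvastatin that SD was wider than the medians themselves. Runs without a prior trend, with the replicate block, 1 probe set per gene or only the 2 groups compared cannot move a difference. Omitting a rosuvastatin and an atorvastatin array cannot move a pitavastatin or pravastatin difference. Such runs are counted here and in the gene differences below, so these counts overstate the stability. Quantile normalization gave -0.031 for complex II and -0.0024 for complex IV with pitavastatin, and -0.0042 for all genes with pravastatin. Centring each array on its median moved the median of all probe sets up by 0.38 with rosuvastatin and 0.10 with pravastatin. It gave rosuvastatin medians of 0.25 for all genes, 0.34 for complex II, 0.23 for complex III, 0.25 for complex IV and 0.26 for complex V, and 0.047 for complex II with pravastatin. Relative to all probe sets, the respiratory genes stood at -0.11 with rosuvastatin and -0.10 with pravastatin, values that centring cannot change. Under quantile normalization these were -0.03 and -0.01. The array median as covariate gave 0.071 for complex IV with rosuvastatin. The 99th percentile as covariate, added after seeing the data like the runs without a pair of arrays, gave -0.027 for complex II and -0.013 for complex IV with pitavastatin, and 0.0054 for all genes and 0.00036 for complex IV with pravastatin. The 27 slope calls on the array median became 8 with quantile normalization, 8 with the replicate block and 5 without rosuvastatin 3 and atorvastatin 2, and 15 to 37 when each array was left out. The labels tie no mice by number, so pairing was not assumed. The correlation of deviations had a median of 0.08 over 40 same-numbered pairs (19 over 0.1). It was -0.04 over 120 different-numbered pairs (46 over 0.1), and 9 of 20 arrays correlated best with their own number. A shared effect of the number was not tested further. The 12 isoform tests stayed above 0.05 in all 184 recomputations, with 32 sign changes, and of 3764 recomputed gene differences 332 changed sign and 0 were called. Centring cannot move a difference within an array, and omitting a rosuvastatin and an atorvastatin array cannot move the other 2 statins. Such runs are among the 184, so that count overstates the stability too. The brightest 30% of probe sets kept 45 of the genes, and no filter kept 48. The causes of these changes were not tested.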
